A study of Arabidopsis thaliana with 12 samples.

Results

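Transcripts of the chloroplast and mitochondrial genomes were followed in RNA sequencing libraries of whole Arabidopsis thaliana seedlings that had been made from polyA RNA. The members are all gene IDs of the deposited table that start with ATCG, which marks chloroplast genes, or ATMG, which marks mitochondrial genes. There were 92 such IDs of 21271 in all, 76 chloroplast and 16 mitochondrial, and 75 of them were listed for every group. The 4 groups of 3 libraries were trb45 line 1, trb45 line 2, the trb123 triple mutant and WT of the Col-0 accession. The trb45 lines were made independently and carry mutations of TRB4 and TRB5, and trb123 carries mutations of TRB1, TRB2 and TRB3. TRB proteins bind telomere repeats, and the study asked what TRB4 and TRB5 do. All seedlings were untreated and aged 7 days. Their plates held 1% sucrose and stood at 23 °C with 16 h light per day, following cold (4 °C) and darkness for 2 days. The labels do not say whether the 3 libraries of a group came from separate plates or pools of plants, so p-values measure the spread between these libraries, which may be technical.

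Chloroplasts and mitochondria keep small genomes of their own. The chloroplast genome encodes subunits of the photosystems, of the cytochrome b6f, ATP synthase and NDH complexes, the large subunit of Rubisco, part of the ribosome, tRNAs, rRNAs and the core of a bacterial-type RNA polymerase, and nucleus-encoded phage-type polymerases transcribe it too. Nuclear messenger RNAs carry long and stable poly(A) tails, whereas in both organelles a tail is mostly added to RNA that is about to be degraded. A library made from polyA RNA therefore holds few organelle transcripts, and its values do not measure their whole amount in the cell.

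Depths inferred from the values lay between 22.59 and 24.34 (in units of 1e6 fragments). The values are the authors' FPKM, which divides a gene's fragments by its length and by the library's depth. In the trb123 libraries TRB1 had 0.65 to 0.99 FPKM, against 9.76 to 11.16 FPKM in WT. TRB2 and TRB3 were also lower in trb123 (adjusted p = 4.97e-08 and 4.13e-06 by limma with Benjamini-Hochberg adjustment over 18700 genes). TRB5 had 2.85 to 3.51 FPKM in the 6 trb45 libraries and 11.04 to 12.54 FPKM in WT. TRB4 was lower in both lines as well, with 2.96 to 6.1 FPKM in the 6 trb45 libraries and 8.16 to 11.04 FPKM in WT. Organelle IDs took 0.478% to 0.742% of the summed FPKM in line 1, 0.492% to 0.607% in line 2, 0.768% to 0.874% in trb123 and 0.444% to 0.659% in WT.

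The sequences behind some of the values are given first. They are the transcript strands of genes on the chloroplast genome (Pltd) as annotated by RefSeq on assembly TAIR10.1, with the longest run of A in capitals (the first of them where several tie). The genes of petN, psbM and rpl32 are shown whole because they are short and because psbM and rpl32 are among the most abundant members and petN varied most between replicates of line 1 and of WT. The other stretches show the longest run of A, with 12 bases on each side, in genes with a central place in the results; internal runs of A are of interest because the libraries were made from polyA RNA.
petN (Pltd:28089-28178, + strand): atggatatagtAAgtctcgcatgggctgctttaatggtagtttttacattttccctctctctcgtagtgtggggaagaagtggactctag
psbM (Pltd:28707-28811, - strand): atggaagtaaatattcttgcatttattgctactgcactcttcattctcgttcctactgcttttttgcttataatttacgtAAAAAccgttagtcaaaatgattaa
rpl32 (Pltd:113449-113607, + strand): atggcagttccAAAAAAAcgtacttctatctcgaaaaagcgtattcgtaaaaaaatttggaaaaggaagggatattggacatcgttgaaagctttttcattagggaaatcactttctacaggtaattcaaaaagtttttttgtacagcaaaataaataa
atpE (Pltd:52592-52619, - strand): ggattcagaagtAAAAgaaatcatttta
atpB (Pltd:54089-54122, - strand): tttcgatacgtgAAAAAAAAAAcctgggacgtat
rpoA (Pltd:78083-78120, - strand): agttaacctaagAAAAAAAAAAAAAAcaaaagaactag
rpl22 (Pltd:83533-83563, - strand): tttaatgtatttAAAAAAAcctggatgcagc
rps19 (Pltd:84249-84281, - strand): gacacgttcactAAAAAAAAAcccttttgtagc
rbcL (Pltd:55492-55520, + strand): gggttatccgcgAAAAActatggtagagc
psbA (Pltd:1356-1383, - strand): taactagcactgAAAAccgtctttacat

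A run of at least 8 A (AAAAAAAA) occurred on the transcript strand of 24 of 129 annotated chloroplast genes (18.6%), and on either strand of 32 (24.8%). Of the 66 chloroplast members with a name, 13 held such a run on the transcript strand. The run was longest in rpoA (14 A), followed by clpP (13 A), petD (12 A), chloroplast rpl16 (11 A) and atpB (10 A). Runs were sought over the whole span of a gene, so those of clpP, petD and chloroplast rpl16 may lie in their introns. The gene rps19 held 9 A, and rpl32 held 7 A, which is short of such a run. The most abundant member, psbM, held no run longer than 5 A, and atpE held none longer than 4 A. Members with the run had a median of 8.98 FPKM in trb123 and 4.13 FPKM in WT (13 members), and members without it 11.3 FPKM in trb123 and 7.51 FPKM in WT (51 members). Members with the run were also longer, with a median span of 1192 bases, introns included, against 399 bases without it. Whether the run goes with the level was not tested.

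The 4 groups did not list the same organelle IDs. The trb123 and WT tables each held 74 chloroplast and 14 mitochondrial IDs, line 1 held 69 and 11, and line 2 held 68 and 12. Listed for trb123 and WT alone were ycf4 and psaC, which serve photosystem I, the NDH genes ndhE, ndhG and ndhI, mitochondrial rpl16 (ATMG00080) and orf294 (ATMG01200). Line 1 alone listed trnY (ATCG00240), trnfM (ATCG00320), ATMG00516 and ATMG00520. The tRNA genes trnC (ATCG00200) and trnE (ATCG00250), nad9 (a subunit of mitochondrial complex I), ATMG00250 and rrn5 were missing from the line 1 table, and trnS (ATCG00090) from the line 2 table. Most of these had low values. In trb123 and WT, ycf4 had at most 1.52 FPKM and ndhE at most 2.48 FPKM.

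Chloroplast genes that repeat elsewhere in the genome were rare among the members. Of 74 chloroplast protein-coding genes without an exact repeat of at least 100 bases over more than 50% of their length, 58 could be tied to a listed ID, against 0 of 11 with such a repeat. Of the 7 chloroplast rRNA genes, which all have such a repeat, none could be tied to a listed ID. Of the chloroplast tRNA genes, 7 of 21 without such a repeat and 1 of 16 with one were tied to an ID. The rule by which genes were listed is not given in the sources used here, and 10 chloroplast and 8 mitochondrial IDs could not be tied to a gene.

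Organelle transcripts were higher in trb123 than in WT across most functional classes. Of the 72 members that could be tested in all 4 groups, 47 were called higher in trb123 and 0 lower (limma, adjusted p under 0.05; 49 higher and 0 lower at an unadjusted p under 0.05). Over all 18700 genes tested, 33.9% were called higher and 25.5% lower in this comparison (59.4% in either direction). The median difference was 0.86 in log2(FPKM + 1) over the 72 members and 0.07 over all genes. Of the 88 members listed for trb123 and WT, 81 had a higher mean in trb123. In 54 of them all 3 trb123 libraries lay above all 3 WT libraries, and in 0 did all lie below. Of the 72 members tested, 47 lay wholly above and 0 wholly below. Among all genes tested 39.6% lay wholly above and 30.6% wholly below. The filter on low values (at least 1 FPKM in at least 3 libraries) kept out ndhF, ATMG00090 and ATMG01170, and 17 members lacked values in some group. It let in 8 of the 72 members only with the help of the trb123 libraries (psaA, rps2, ndhA, ndhH, cox2 and 3 IDs with no name). Of these 8, 6 were called higher, and of the other 64, 41 were. Differences in log2(FPKM + 1) understate the change of members near 1 FPKM. In whole seedlings a larger share of cells or organelles and more RNA in each cannot be told apart.

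**Figure D1:**
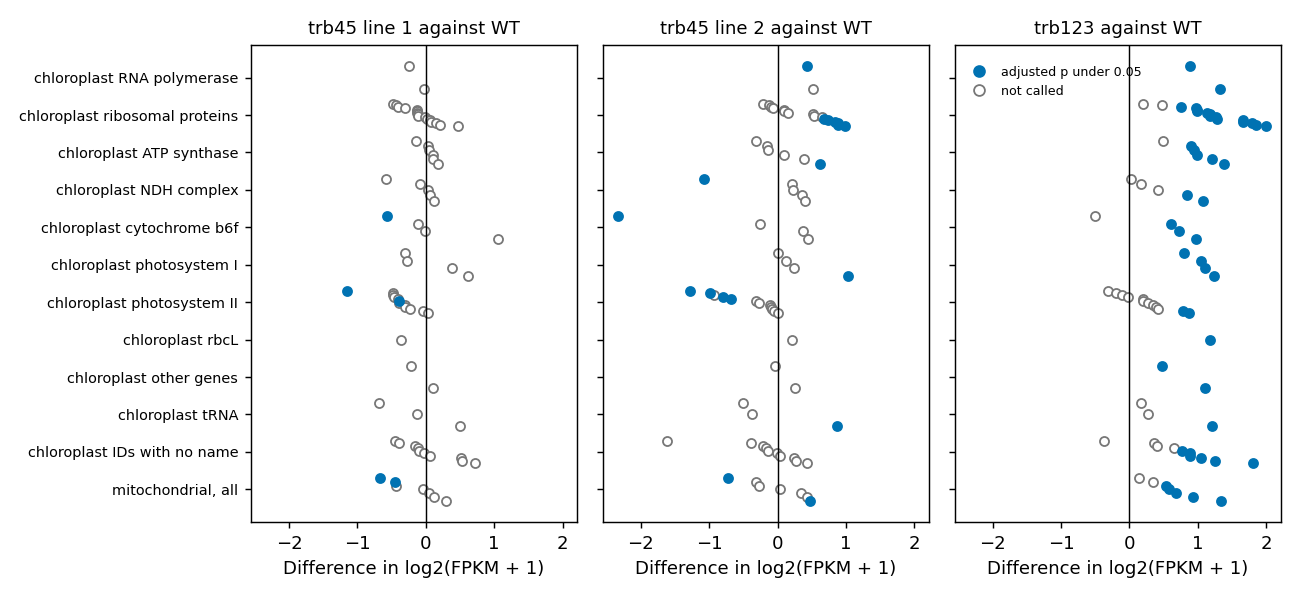
Difference in log2(FPKM + 1) of each tested member against WT (x axis) by functional class (y axis), for trb45 line 1, trb45 line 2 and trb123; each point is 1 member, filled where its adjusted p was under 0.05. In the trb123 panel 47 of 72 points are filled and all of these lie right of 0, and in the line 1 panel 5 are filled and lie left of 0.

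Summed over the listed IDs, chloroplast FPKM came to 5452, 5227 and 4830 in the trb123 libraries, against 2992, 2748 and 4060 in the WT libraries. The lowest trb123 library was above the highest WT library. The group means, 5170 ± 315 in trb123 and 3266 ± 698 in WT (SD, n = 3 each), differed 1.58-fold. Line 1 averaged 3623 ± 1012 and line 2 averaged 3365 ± 437 (SD, n = 3 each), and both overlapped WT. Line 1 replicate 2 alone reached 4790. Mitochondrial FPKM summed to 184, 172 and 158 in trb123, against 76.5, 66.8 and 85.1 in WT, a ratio of means of 2.25. These sums were not tested.

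**Figure D2:**
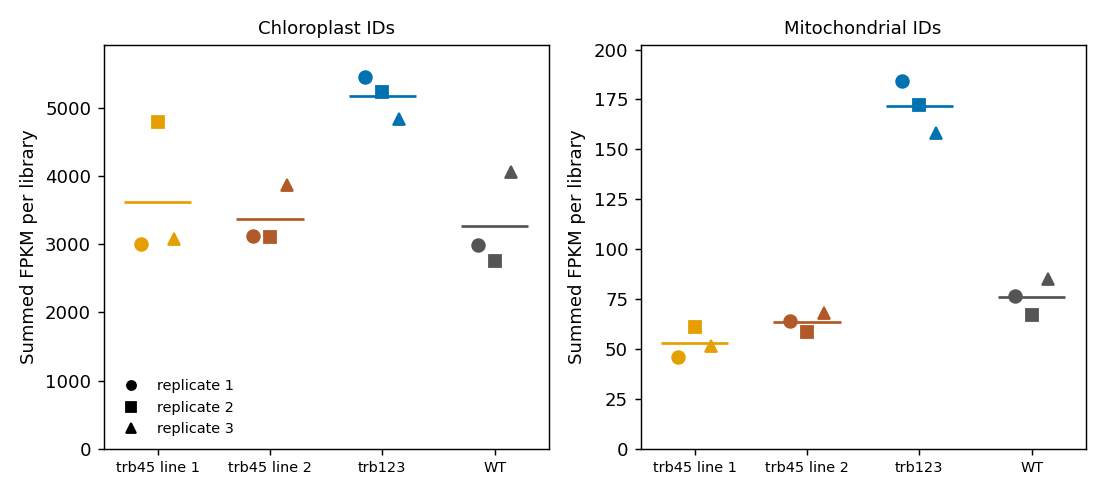
Summed FPKM of the chloroplast IDs (left) and of the mitochondrial IDs (right) in each library; symbols mark replicates and lines the group means. All 3 trb123 libraries lie above all other libraries in both panels, from 4830 for chloroplast and from 158 for mitochondrial IDs.

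Large differences lay in a gene cluster that resembles the ribosomal protein operons of bacteria. Of it 7 genes are described here: rpoA, for the alpha subunit of the bacterial-type RNA polymerase, and the ribosomal protein genes rpl36, rpl14, rpl16, rps3, rpl22 and rps19. All 7 were higher in trb123 than in WT. The gene rpl22, for a protein of the large ribosomal subunit, had 142.14, 136.68 and 120.96 FPKM in trb123, against 26.78, 25.02 and 51.69 FPKM in WT (1.99 in log2(FPKM + 1), SE 0.24, adjusted p = 1.54e-05). The gene rps19, for a protein of the small subunit, had 97.59, 98.94 and 86.52 FPKM in trb123, against 27.14, 16.66 and 36 FPKM in WT (1.85, SE 0.25, adjusted p = 4.75e-05). The trb123 libraries were close together in both genes, and WT replicate 3 was the highest of its group.

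The levels of these genes differed, and rpl14 had a mean of 220 FPKM in trb123 and 65.4 FPKM in WT. For rpl14 the difference was 1.79 (SE 0.22, adjusted p = 1.67e-05), and for rps3, another small-subunit protein, 1.66 (SE 0.22, adjusted p = 3.06e-05). At the end of the cluster rpoA had 49.78, 58.88 and 41.2 FPKM in trb123, against 16.24, 14.09 and 30.57 FPKM in WT (1.32, SE 0.24, adjusted p = 0.000447). The smallest difference of the 7 was that of rpl16, at 1.18, with 214 ± 7 FPKM in trb123 and 97.9 ± 36.0 FPKM in WT (SD, n = 3 each). The 7 genes made up 19.1% to 19.3% of the summed chloroplast FPKM in trb123 and 9.01% to 11.9% in WT. Their share thus differed between the groups, as did their level.

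**Figure D3:**
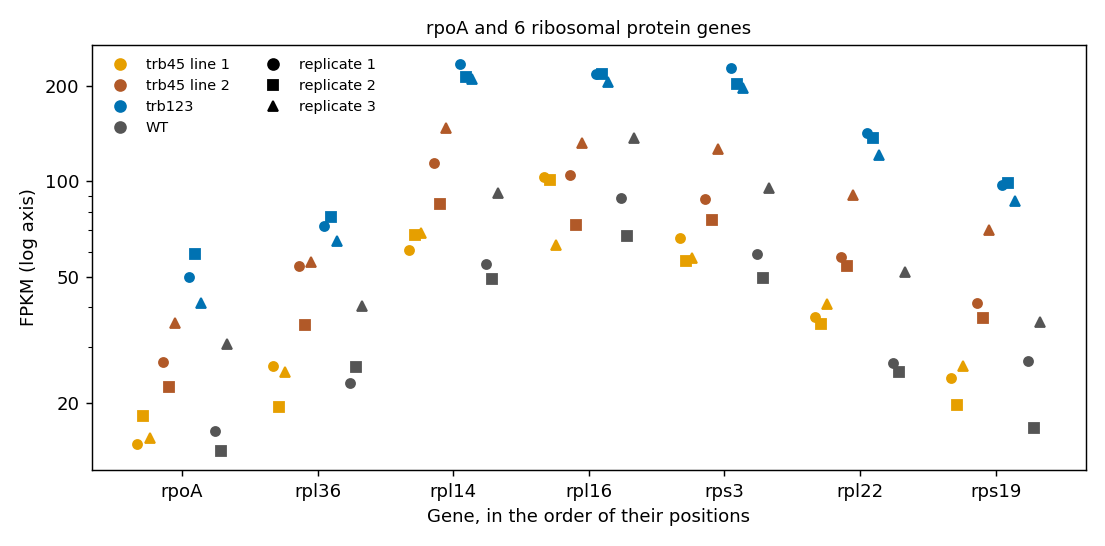
FPKM (log axis) of rpoA and 6 ribosomal protein genes of the cluster in each of the 12 libraries, by group and replicate. By mean, trb123 is the highest group at each gene and line 2 lies between trb123 and WT, and replicate 3 is the highest library of line 2 at each of the 7 genes.

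Of all 16 ribosomal protein genes tested, 14 were higher in trb123 and 0 lower, with a median difference of 1.19. The other 2, rpl33 and rpl20, had 0.21 and 0.48 in log2(FPKM + 1) with adjusted p = 0.685 and 0.246. Both polymerase genes with a name, rpoA and rpoC1, were higher. ATCG00065, an ID that could not be tied to a gene, had 34.8, 21.48 and 21.43 FPKM in trb123, against 5.97, 6.21 and 7.44 FPKM in WT (1.80, SE 0.27, adjusted p = 9.23e-05). The libraries of the 2 groups did not overlap in it.

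The 3 most abundant members took 53.4% to 54.6% of the summed chloroplast FPKM in trb123 and 60.3% to 64.8% in WT. The highest was psbM, for a small subunit of photosystem II, with 1028.92, 1175.04 and 904.22 FPKM in trb123, against 793.76, 774.52 and 1022.86 FPKM in WT. Those groups overlapped (0.27, SE 0.20, adjusted p = 0.264). The gene rpl32, for a protein of the large ribosomal subunit, had 1055.33, 828.8 and 881.5 FPKM in trb123, against 480.84, 501.45 and 669.61 FPKM in WT (0.75, SE 0.23, adjusted p = 0.0137). The call for rpl32 was lost without trb123 replicate 1 or without WT replicate 1. In atpE, for the epsilon subunit of ATP synthase, all trb123 libraries lay above all WT libraries, at 893.11, 785.69 and 824.06 FPKM in trb123 against 529.41, 504.39 and 781.18 FPKM in WT, but the difference missed the threshold (0.49, adjusted p = 0.0536).

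The other 5 ATP synthase genes were called higher in trb123. The gene atpB, for the beta subunit, overlaps atpE on the same strand, so that reads of the overlap may count for either, and had 325 ± 18 FPKM in trb123, against 178 ± 44 FPKM in WT (SD, n = 3 each; 0.89, SE 0.15, adjusted p = 0.000264). The genes atpA, atpF, atpH and atpI were lower in level, with means of 6.02 to 10.5 FPKM in trb123 and 1.96 to 5.09 FPKM in WT. The largest difference of the class was that of atpF, at 1.39.

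Photosystem I genes were higher in trb123 in 4 of 4 tested members (psaA among them passed the filter only with the trb123 libraries), and photosystem II genes in 2 of 12. The reaction centre genes psaA and psaB were low, with 3.17 ± 0.13 and 3.03 ± 0.46 FPKM in trb123, against 0.773 ± 0.196 and 1.00 ± 0.57 FPKM in WT (SD, n = 3 each). The small-subunit gene psaJ had 110.44, 121.94 and 110.72 FPKM in trb123, against 62.4, 67.88 and 64.67 FPKM in WT (0.81, SE 0.21, adjusted p = 0.00462). In photosystem II the called members were psbD, a reaction centre subunit, and psbC, an antenna subunit, at 0.87 and 0.78. The other 10 ranged from -0.31 (psbT) to 0.41 (psbI) with adjusted p of at least 0.0878. That the classes differ was not tested.

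Among them psbA, which encodes the D1 reaction centre protein and is one of the most abundant chloroplast messenger RNAs in leaves, had 11.84, 17.57 and 15.83 FPKM in trb123, against 15.38, 8.09 and 16.56 FPKM in WT. Its groups overlapped (0.21, adjusted p = 0.527). The Rubisco large subunit gene rbcL, likewise abundant in leaves, had 10.88, 17.41 and 11.24 FPKM in trb123, against 7.27, 3.63 and 4.97 FPKM in WT (1.18, SE 0.27, adjusted p = 0.00214). It was not called with a term for a split of the libraries known from earlier results of these data (the 3 WT libraries and line 1 replicates 1 and 2 on one side, the other 7 libraries on the other, with no such batch in the labels). As only line 1 holds libraries of both sides, the term is set by its replicate 3 against its replicates 1 and 2. For comparison, the nuclear gene RBCS1A, which encodes the small subunit of Rubisco, had 27370 to 31010 FPKM in trb123 and 27300 to 29560 FPKM in WT.

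In the NDH complex, which feeds electrons back around photosystem I, 2 of 5 tested members were higher in trb123, ndhA and ndhH, both at 2.44 FPKM or less in every trb123 and WT library and both among those that passed the filter only with the trb123 libraries. The gene ndhK had 111 ± 14 FPKM in trb123 and 83.8 ± 22.2 FPKM in WT (SD, n = 3 each; adjusted p = 0.051), and ndhJ 69.5 ± 11.8 FPKM in trb123 and 61.6 ± 12.3 FPKM in WT. The neighbouring ndhC averaged 23.7 FPKM in trb123 and 24.2 FPKM in WT. In the cytochrome b6f complex petA, petB and petD were higher (0.72, 0.98 and 0.60), while petN had -0.51 (adjusted p = 0.58). The calls of petA and petD were lost with the term for the split of the libraries. The protease gene clpP had 41.7 ± 1.6 FPKM in trb123, against 19.1 ± 4.6 FPKM in WT (SD, n = 3 each; 1.11, SE 0.16, adjusted p = 6.03e-05), and cemA, for an envelope membrane protein, 11.6 FPKM in trb123 and 8.19 FPKM in WT (0.47, adjusted p = 0.0435). The cemA call was lost in 11 of 25 alternatives, among them all 3 other scalings.

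Of the 3 tRNA genes listed for all groups, trnV was higher in trb123, with 25.4, 22.25 and 21.82 FPKM against 9.77, 7.78 and 10.88 FPKM in WT (1.21, SE 0.18, adjusted p = 7.56e-05). These values stand for 39 to 45 fragments in trb123 and 13 to 19 fragments in WT. The more abundant trnL averaged 111 FPKM in trb123 and 99.9 FPKM in WT, and trnS (ATCG00290) 16.5 FPKM in trb123 and 16.1 FPKM in WT. Neither was called.

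A fit of the trb123 and WT tables alone took in 77 members, of which 54 were called higher and 0 lower, while 38.5% of its 18629 genes were called higher. It added 6 members listed for only some groups, and 4 of them were higher in trb123. Of these 4, trnE, psaC and mitochondrial rpl16 passed the filter only with the trb123 libraries. So did further members of this fit, among them psaA, rps2, psaB, petB, rpoC1 and orf275. How many of the 54 calls came from such members was not counted, so this count adds no support to that of the fit of all groups. The mitochondrial 5S rRNA gene rrn5 had 10.62, 11.45 and 11.93 FPKM in trb123, against 1.8, 1.13 and 1.44 FPKM in WT (2.34 in that fit, SE 0.12, adjusted p = 1.90e-07). The chloroplast gene trnE, for the tRNA that also starts tetrapyrrole synthesis, had 9.73, 7.52 and 7.37 FPKM in trb123, against 0.58, 0 and 2.32 FPKM in WT (2.40, SE 0.35, adjusted p = 0.000193). The fragment numbers are small, 13 to 17 for trnE in trb123 and 0 to 4 in WT. The gene psaC and mitochondrial rpl16 were the others called, and trnC and trnS (ATCG00090) were not.

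Mitochondrial members were few and mostly low. The 2 highest were ATMG00020, which could not be tied to a gene, and rrn18, the 18S rRNA of the mitochondrial ribosome. ATMG00020 had 121.53, 103.44 and 95.87 FPKM in trb123, against 43.62, 36.48 and 45.01 FPKM in WT (1.34, SE 0.13, adjusted p = 1.99e-06). The gene rrn18 had 34.29, 37.93 and 35.39 FPKM in trb123, against 24.76, 19.06 and 27.84 FPKM in WT (0.58, SE 0.12, adjusted p = 0.0012). In both the groups did not overlap. Of 7 mitochondrial IDs tested, 5 were higher in trb123 and 0 lower, the others being orf149, orf275 and ATMG00690, all under 4 FPKM. The orf149 call was lost in 7 of 24 alternatives. For cox2, a subunit of complex IV, the 2 groups overlapped at 0.43 to 1.4 FPKM.

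Both of these IDs were lower in the trb45 lines than in WT, with calls for rrn18 in both lines and for ATMG00020 in line 1. The gene rrn18 had 14.19, 15.77 and 13.48 FPKM in line 1 and 13.95, 13.18 and 14.65 FPKM in line 2, below all 3 WT libraries at 19.06 to 27.84 FPKM. It was lower in line 1 (-0.67, SE 0.12, adjusted p = 0.00338) and in line 2 (-0.72, SE 0.12, adjusted p = 0.00138). ATMG00020 had 25.79, 33.58 and 31.22 FPKM in line 1, below WT (-0.46, adjusted p = 0.0258), and 34, 30.33 and 35.28 FPKM in line 2, where the call was missed. The line 1 call of ATMG00020 was lost in 6 of 24 alternatives, among them the fit of only the groups compared and leaving out line 1 replicate 1, WT replicate 1 or WT replicate 3. The 2 trb45 lines share their WT libraries in these comparisons. The line 2 call for rrn18 was lost with the term for the earlier split, and the line 1 call without the 3 libraries high in petN (WT replicate 1 and line 1 replicates 2 and 3), an alternative chosen after seeing the data.

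**Figure D4:**
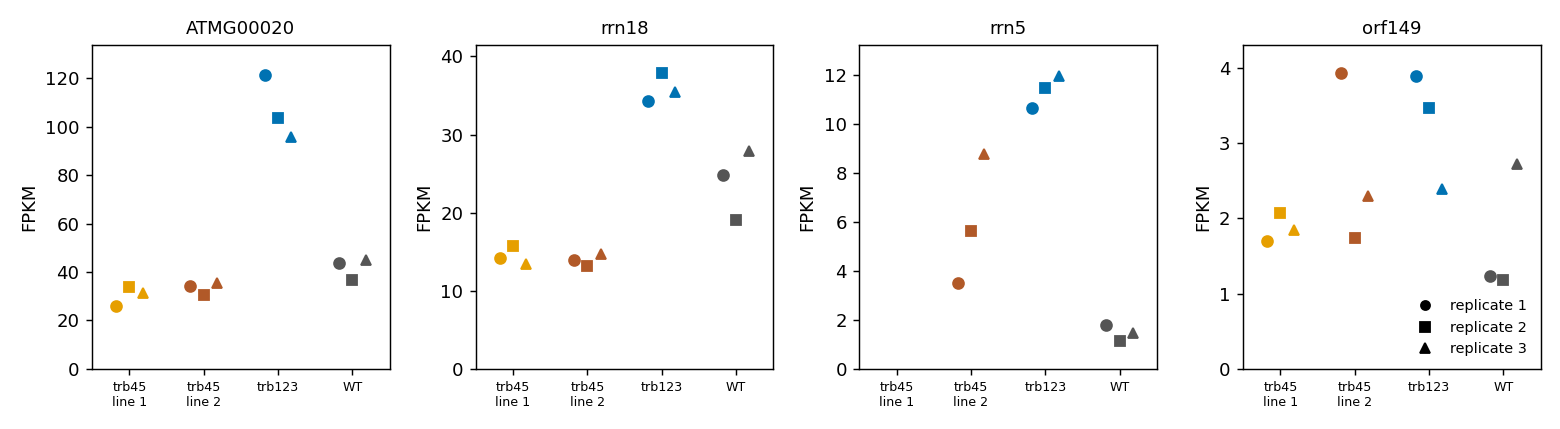
FPKM of ATMG00020, rrn18, rrn5 and orf149 in each library by group, with symbols for replicates; rrn5 is not listed for line 1. For rrn18 the 6 trb45 libraries sit between 13.18 and 15.77 FPKM, the trb123 libraries between 34.29 and 37.93 FPKM and the WT libraries between 19.06 and 27.84 FPKM.

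In the same trb123 libraries most of the nuclear ribosomal RNA IDs tested were higher, beside 33.9% of all genes called higher and 25.5% lower. Of 4 nuclear rRNA IDs listed for all groups, 3 were higher in trb123 and 0 lower by either p (1 lower under quantile scaling), with summed FPKM of 685 to 728 in trb123 and 361 to 584 in WT. In AT2G01020 the trb123 libraries had 126 to 135 FPKM, against 5.94 to 9.82 FPKM in WT. AT3G41768 went the other way without a call, with a mean of 221 FPKM in trb123 and 316.5 FPKM in WT (-0.48, adjusted p = 0.136 by limma). In the trb45 lines the sum was 292 to 488 FPKM in line 1 and 254 to 319 FPKM in line 2. Against WT, 2 of the 4 IDs were called higher and 0 lower in line 1 (7.77% and 10.4% of all genes). In line 2, 1 was higher and 1 lower (14.9% and 15.6% of all genes). The lower one was AT3G41768 (-1.39 in line 2, adjusted p = 0.00267 by limma), which had -0.56 in line 1 (adjusted p = 0.161). The mitochondrial rrn18 was lower in both lines. AT2G01020 was higher in line 1 (0.72, adjusted p = 0.00839) and in line 2 (0.45, adjusted p = 0.045). What part carry-over of RNA without a poly(A) tail has in the organelle values was not tested. Of 16 nuclear IDs from AT2G07600 to AT2G07850, a range that surrounds a large copy of mitochondrial DNA on chromosome 2, 6 were tested and 4 were higher in trb123 (1 with the term for the earlier split), beside 33.9% of all genes. Of the named mitochondrial members, rrn18, rrn5, nad9, orf149 and orf275 hold no exact match of at least 100 bases to the nuclear reference genome. Such matches cover 6.73% of the length of cox2, 40.6% of mitochondrial rpl16 and 99.9% of orf294.

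In trb45 line 2 against WT, 11 of 72 members were higher and 7 lower (14.9% and 15.6% of all genes tested were called in these directions, 30.5% in either). The share of members called higher, 15.3%, was thus near that of all genes, and the share called lower was under it. Among the 11 were 4 of the 7 cluster genes described above. The gene rpl22 had 57.51, 54.18 and 90.89 FPKM in line 2, above all WT libraries at 25.02 to 51.69 FPKM (0.99, SE 0.24, adjusted p = 0.00874). The genes rps19, rpl14 and rpl36 were higher by 0.68 to 0.88, and in all of these but rps19 the libraries of line 2 and WT overlapped (25.4% of all genes lay wholly above WT). Line 2 replicate 3 was the highest library of line 2 at all 7 of these genes. Also higher were psaJ, with 133.8 FPKM in line 2 and 65.0 FPKM in WT (1.03, SE 0.21, adjusted p = 0.00333), trnV (0.87), atpB (0.62), orf275 (0.47) and rpoC1 (0.42). The calls of rpoC1 and orf275 were lost in 14 and 10 of 23 alternatives.

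Most of the 7 members lower in line 2 were short genes of photosystem II. Whether such genes were lower more often than other members was not tested. Among them was psbI, a small photosystem II subunit, with 7.77, 4.83 and 7.83 FPKM in line 2 against 19.16, 13.96 and 10.69 FPKM in WT (-0.99, SE 0.20, adjusted p = 0.0033). Other short photosystem II genes, psbK (-1.27), psbJ (-0.68) and psbT (-0.80), were lower too, as were ndhC (-1.08), rrn18 and petN (-2.34, SE 0.75, adjusted p = 0.0324). The WT values of petN, a subunit of the cytochrome b6f complex, were 76.58, 9.84 and 15.07 FPKM and thus rest on replicate 1. The line 2 count was 9 without line 2 replicate 3 and 11 without WT replicate 1. With the term for the earlier split limma called 0 members in line 2, with 8 at an unadjusted p under 0.05. The same term left 36 members called higher in trb123, 32 of them among the 47.

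In trb45 line 1 against WT, 5 of 72 members were lower and 0 higher (10.4% and 7.77% of all genes, 18.2% in either direction). Both counts were under the shares of all genes. At an unadjusted p under 0.05 limma gave 6 lower and 2 higher members, and median-ratio scaling gave 5 lower and 2 higher calls. Besides rrn18 and ATMG00020 the called members were psbT, psbJ and petD, of which psbJ was lost in 8 of 24 alternatives. The small photosystem II gene psbT had 4.58, 7.07 and 6.9 FPKM in line 1, against 15.43, 8.68 and 23.68 FPKM in WT (-1.16, SE 0.28, adjusted p = 0.0144). Without line 1 replicate 1 there were 4 higher and 3 lower calls. The count fell to 2 without WT replicate 1 and to 3 without WT replicate 3, and without the 3 libraries high in petN it was 0, with 8 at an unadjusted p under 0.05. None of the 16 ribosomal protein genes was called, and the libraries of line 1 and WT overlapped in each of the 7 cluster genes.

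Set against trb123, both trb45 lines together were lower in 54 of 72 members and higher in 0 (36.2% and 23.4% of all genes, 59.6% in either direction; at an unadjusted p under 0.05, 58 lower and 0 higher). The 72 include the 8 members that passed the filter only with the trb123 libraries. Of these, psaA, rps2, ndhH and all the IDs with no name were among the members called lower, and cox2 was not. This comparison shares its trb123 libraries with that of trb123 and WT. It included psbI and psbJ, which averaged 8.4 and 17.3 FPKM in the trb45 libraries and 19.3 and 25.1 FPKM in trb123 (-1.15 and -0.52, adjusted p = 8.17e-05 and 0.000461). All 6 ATP synthase genes tested, 14 of 16 ribosomal protein genes and 7 of 12 photosystem II genes were lower. In ATMG00020 the trb45 libraries averaged 31.7 FPKM, against 107 FPKM in trb123 (-1.72, SE 0.11, adjusted p = 4.71e-08).

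The trb45 lines differed from each other in 5 members, 2 higher and 3 lower in line 1 than in line 2 (2.07% and 2.55% of all genes, 4.63% in either direction). Higher in line 1 was petN, with 12.75, 120.7 and 70.82 FPKM in line 1, against 6.39, 2.75 and 2.76 FPKM in line 2, and so was ATCG00030, with 9.45, 51.27 and 46.56 FPKM in line 1, against 5.14, 3.44 and 6.32 FPKM in line 2. Replicates 2 and 3 of line 1 set both. Among those lower were rpl36 and rps19 of the cluster described above. The count did not hold up, since leaving out any of 5 libraries (trb123 replicates 1 and 3, line 1 replicate 2, line 2 replicates 1 and 3) gave 0 calls by limma, with 18 to 24 at an unadjusted p under 0.05. Leaving out WT replicate 1 or 2 or line 1 replicate 1 gave 1 call, WT replicate 3 or trb123 replicate 2 gave 2, and line 1 replicate 3 gave 14.

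The same libraries, of different groups, were high in both petN and ATCG00030. WT replicate 1 had 76.58 FPKM of petN and 35.45 FPKM of ATCG00030, while the other WT libraries had at most 15.07 and 16.48 FPKM. Line 1 replicates 2 and 3 stood out in the same way. The recovered fragment numbers of petN were 256 and 154 in those line 1 libraries and 162 in WT replicate 1, and 6 to 41 in the other 9 libraries. The tRNA genes listed for line 1 alone followed the same order: trnY had 1.52, 12.12 and 8.38 FPKM and trnfM 2.87, 20.07 and 9.51 FPKM. Without these 3 libraries trb123 still had 47 members called higher and 0 lower. The short gene trnL had 76.58 FPKM in WT replicate 1 and 125.66 FPKM in WT replicate 3, while psbI was highest in WT replicate 1, with 19.16 FPKM, and lowest in line 1 in replicate 1, with 8.43 FPKM against 11.47 and 10.07 FPKM in line 1 replicates 2 and 3.

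**Figure D5:**
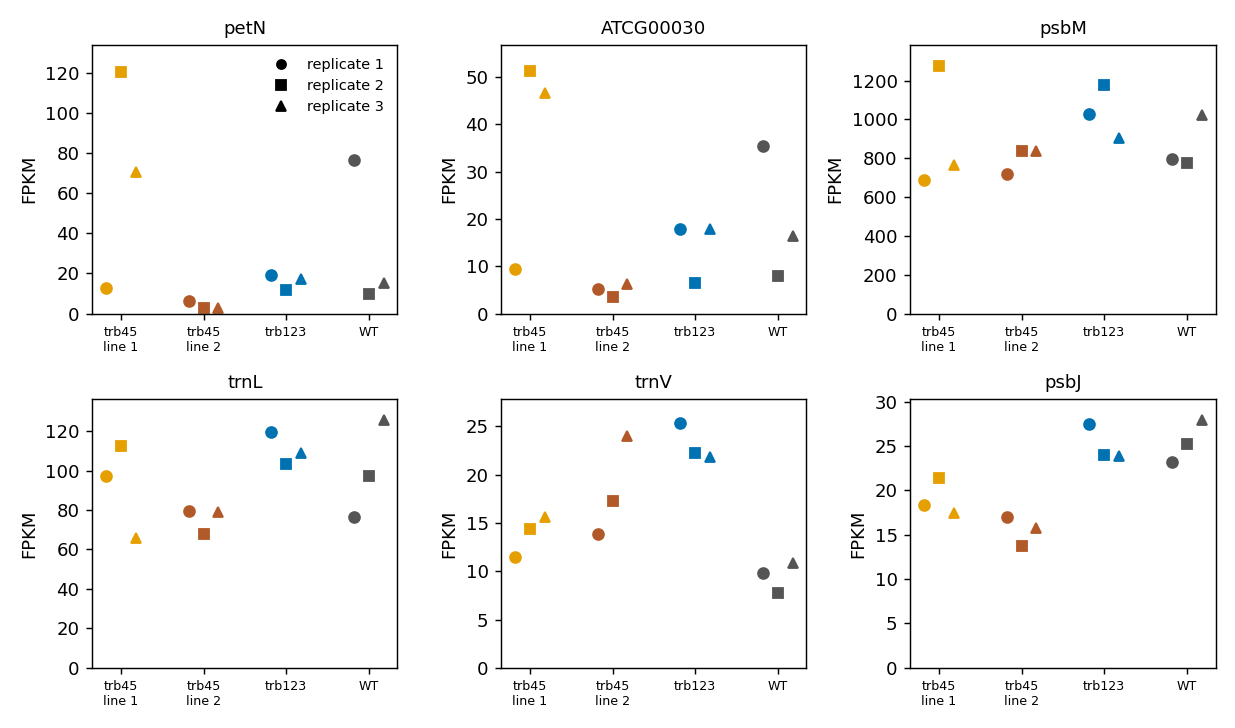
FPKM of petN, ATCG00030, psbM, trnL, trnV and psbJ in each library by group, with symbols for replicates. In petN, line 1 replicates 2 and 3 and WT replicate 1 lie at 120.7, 70.82 and 76.58 FPKM, and all other libraries at or below 19.02 FPKM.

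Replicates differed more in chloroplast transcripts than in most genes. The median SD of log2(FPKM + 1) over the 65 chloroplast members tested was 0.23 in line 1, 0.35 in line 2, 0.18 in trb123 and 0.41 in WT, beside 0.18 in line 1, 0.12 in line 2, 0.10 in trb123 and 0.11 in WT over all genes tested. In WT, 53 of 74 chloroplast IDs were highest in replicate 3 and 51 lowest in replicate 2. In line 2, 56 of 68 were highest in replicate 3 and 47 lowest in replicate 2, and in line 1, 40 of 69 were highest in replicate 2. In trb123, 49 of 74 were lowest in replicate 3. In WT and line 2 most chloroplast members were therefore highest in the same library and lowest in the same library. In line 1 replicate 1 was lowest for 30, replicate 2 for 13 and replicate 3 for 26 IDs. In trb123 replicate 1 was highest for 31, replicate 2 for 40 and replicate 3 for 3 IDs. Leaving out WT replicate 3, the highest WT library, moved the log2 ratio of the chloroplast sums of trb123 and WT to 0.85, against 0.66 with it.

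Nuclear genes that serve green tissue did not share the higher level in trb123. Of 5 such genes (RBCS1A, RBCS2B, RBCS3B, LHCB1.3 and LHCA1) 0 were higher and 2 lower in trb123 by limma (also 0 higher and 2 lower at an unadjusted p under 0.05), with sums of 50406 to 55221 FPKM in trb123 and 54512 to 59482 FPKM in WT. Of 5 root genes (PYK10, TIP2;3, PRP3, EXPA7 and COBL9) 0 were higher and 3 lower by either p (1 lower with the term for the earlier split), with sums of 715 to 738 FPKM in trb123 and 931 to 1132 FPKM in WT. Over all genes, 33.9% were called higher and 25.5% lower in trb123. None of the 10 green tissue and root genes was at 0 in any library. The part of such tissue shares in the organelle values was not tested.

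Of 28 nuclear genes for organelle transcription and RNA turnover, 8 were higher and 9 lower in trb123, shares near those of all genes (33.9% and 25.5%). Higher were the phage-type polymerases RPOTp of chloroplasts, with 15.1 ± 0.5 FPKM in trb123 and 8.26 ± 0.26 FPKM in WT (0.80, adjusted p = 2.56e-05), and RPOTm of mitochondria (0.86, adjusted p = 3.33e-05). RPOTmp, which serves both organelles, was at 0.17 (adjusted p = 0.183). The largest rise was that of PAP10, a protein associated with the bacterial-type polymerase, with 59.5 FPKM in trb123 and 24.3 FPKM in WT (1.26, adjusted p = 5.92e-06), and PAP4 was at 1.11.

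Sigma factors, which guide the bacterial-type polymerase to promoters, were lower in trb123 in 5 of 6 genes. SIG5 had 12.7 ± 0.4 FPKM in trb123 and 45.1 ± 3.7 FPKM in WT (SD, n = 3 each; -1.75, adjusted p = 3.72e-07), SIG3 was at -1.17 and SIG4 at -1.17. SIG6 was at -0.03 (adjusted p = 0.782). Of the RNA turnover genes, CSP41A and CSP41B, which encode RNA-binding proteins of chloroplasts, were lower (-1.19 and -0.52), the mitochondrial polynucleotide phosphorylase gene was higher (0.74, adjusted p = 0.000199), and the chloroplast one was at 0.01 (adjusted p = 0.925). In line 1, 0 of the 28 were higher and 5 lower by limma (1 and 10 at an unadjusted p under 0.05), and in line 2, 4 were higher and 5 lower. Over all genes, 7.77% were called higher and 10.4% lower in line 1, and 14.9% and 15.6% in line 2. With the term for the earlier split, 3 of the 28 were higher and 5 lower in trb123, and 3 of the 6 sigma factors were lower.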

How the data were processed

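RNA was sequenced from polyA libraries of whole seedlings, in 4 groups of 3 libraries. Per the labels' protocols the libraries were stranded DNBSEQ mRNA libraries, and per the submitters' processing notes STAR 2.7.1, DESeq2 and build TAIR10 were used. The counting program and the rule by which genes were listed are not given in the sources used here. The deposited values are FPKM, rounded by the authors to 2 decimals, in 4 tables with gene lists of their own. The FPKM of trb45 line 1 are written with decimal commas, which were read as points. Lines that repeat an ID with the same values were used once.

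Depth was inferred from the deposited values, which lie on whole-fragment steps for genes of known length: 83.7% to 86.4% of the values examined lay within 0.25 of a whole number. The authors' gene lengths were not used, so no count test was run. The same steps gave each member's length. It was matched to the RefSeq annotation of TAIR10.1, exactly and with at least 10 fragments: 47 chloroplast and 8 mitochondrial IDs had 1 gene of that length, and 19 chloroplast IDs were settled by their place between these, whose ID order and position rose together in 46 of 46 steps. The annotation's notes name 5 of these IDs, 4 with the same product and ndhK by its older name as a photosystem II protein. Names are therefore assigned, and 18 IDs have none. Results of some members are not reported here.

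Genes listed for every group with at least 1 FPKM in at least 3 libraries (18700) were fitted with limma 3.58.1 in R 4.3.3 on log2(FPKM + 1), with trend, over all 12 libraries. P-values were adjusted by Benjamini-Hochberg over all genes, and a gene was called under 0.05. The fit was tested on simulated data. The members and lists were chosen with earlier results of these data known. Genes named were the 2 highest of each class, the called members (the 5 largest with at least 5 FPKM where over 12 were called), rbcL, psbA, rRNA genes and IDs listed in only some tables; others were named after their values were seen. Alternatives were other thresholds, filters, pseudocounts, scalings and fits, a replicate block, a term for an earlier split of the libraries, and leaving out libraries. Deviations of same-numbered libraries from their group means had r from -0.06 to 0.32 over 18 pairs, 4 of them over 0.1. The largest were those of line 2 with WT, in replicate 2 (0.32) and replicate 3 (0.22).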

Additional observations from a re-analysis of the deposited data

Results flagged for a closer look

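The trb45 lines, which were compared with the same WT libraries, differed from each other in 5 members by the test of the difference itself (limma, line 1 minus line 2 in log2(FPKM + 1)). Among them were petN at 3.39 (adjusted p = 0.0396), ATCG00030 at 2.34 (0.0471), rpl36 at -0.99 (0.0381) and rps19 at -1.02 (0.0456). In each of these 4 the 3 libraries of line 1 lay apart from the 3 of line 2. That was common, since of the 72 members 5 lay wholly above and 19 wholly below in line 1. The share of all genes that lay apart in this way was not computed. With the term for the earlier split of the libraries 0 of the 72 members were called between the lines, with 14 at an unadjusted p under 0.05.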

How the results depend on the processing

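The calls of trb123 against WT (47) ranged from 43 to 49 when 1 library was left out and from 32 to 54 under the other alternatives, and 29 of the 47 were made under all that tested them. Those of both trb45 lines against trb123 (54) ranged from 44 to 58 and from 39 to 59, and 39 were made under all that tested them. At an adjusted p under 0.01 the counts were 1 for line 1, 8 for line 2 and 0 between the lines. Fits of only the groups compared gave 3 for line 1 and 0 between the lines. The term for the earlier split gave 0 for line 2 and 0 between the lines. Without the 3 libraries high in petN line 1 had 0, and its mitochondrial sum was -0.73 against WT on the log2 scale, beside -0.53 with them. Leaving out 1 library gave 2 to 7 calls for line 1 (4 higher and 3 lower without line 1 replicate 1), 9 to 23 for line 2 and 0 to 14 between the lines. Whether the same numbers pair the libraries is not known. With the replicate block the count between the lines was 10. The split term reversed ndhC (0.0091) and orf275 (-0.11) in line 2 and orf275 (-0.044) in trb123. Log2 ratios of the chloroplast sums to WT ranged with 1 library left out from -0.10 to 0.34 in line 1, -0.07 to 0.23 in line 2 and 0.55 to 0.85 in trb123, and those of the mitochondrial sums from -0.64 to -0.44 in line 1, -0.35 to -0.17 in line 2 and 1.09 to 1.26 in trb123. The causes were not tested. Depth limits members of few fragments, such as petB with 5 to 48 in a library and trnV with 13 to 45.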

Other observations

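Chloroplast members of up to 200 bases and longer ones differed in how many were called in trb123. Of the 15 short ones tested 5 were higher than in WT, with a median difference of 0.27, and of the 40 longer ones 31 were higher, with a median of 0.98. The length limit was chosen after the values were seen, and the difference was not tested. In line 1 the median SD between replicates was 0.39 in the short members and 0.17 in the longer ones, while in WT it was 0.35 and 0.42.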
